A study of Mus musculus with 10 samples.

Results

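The genes described here are 10 CC chemokines that attract monocytes, macrophages or eosinophils. They are the Ccr2 ligands Ccl2, Ccl7, Ccl12 and Ccl8, the leukocyte attractants Ccl3 and Ccl4, the Ccr1 ligands Ccl6 and Ccl9, and the eotaxins Ccl11 and Ccl24. They were chosen by gene symbol, and all 10 were found among the 24358 gene symbols measured.

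Chemokines are small secreted proteins that guide leukocytes along a gradient by binding receptors on the cell surface. Ccr2 brings blood monocytes out of the circulation and into inflamed tissue, Ccr1 acts on monocytes, macrophages and other leukocytes, and Ccr3 is the main chemokine receptor of eosinophils. In skin, Ccl2 and Ccl7 are made by fibroblasts, keratinocytes and endothelium after stimulation by inflammatory cytokines, Ccl3 and Ccl4 by activated leukocytes, and Ccl6, Ccl8, Ccl9 and Ccl24 largely by macrophages.

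Full-thickness dorsal skin was taken from 5 mice of the C57Bl/6 strain, with 1 lesional and 1 uninvolved biopsy from each, and the RNA of these 10 biopsies was sequenced. All 5 mice carried the IL-17C transgene, a cytokine gene whose product drives psoriasis-like skin inflammation, so there was no group without it. Genotype labels named 3 mice IL-17C+ (2237, 2275 and 2296) and 2 mice IL-17C+KO (2392 and 2465). In the second group the gene knocked out is interleukin-6 (Il6), going by the title of the series. The sources used here do not name the promoter that drives the transgene. Nor do they say which mice were 10 and which were 14 weeks old, so age and genotype cannot be told apart. In whole skin, a lower level of a gene can come from fewer cells of a type or from less RNA per cell, and these cannot be told apart.

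Of the 10 genes, 9 lie in 2 groups on chromosome 11 (GRCm38, GENCODE M21). Ccl2 (82035571 to 82037453), Ccl7 (82045712 to 82047525), Ccl11 (82057823 to 82062955), Ccl12 (82101845 to 82103400) and Ccl8 (82115185 to 82116799) stand in this order on the plus strand. After 1456.119 kb that hold 27 protein-coding genes come Ccl9 (83572919 to 83578636), Ccl6 (83587882 to 83593087) and Ccl3 (83647844 to 83649355) on the minus strand and Ccl4 (83662584 to 83664683) on the plus strand. Ccl24 lies apart on chromosome 5 (135569937 to 135573049, minus strand). The RefSeq gene model of Ccl4 reaches further upstream and shares 755 bases with that of Ccl3 on the opposite strand. The sources used here do not state the strand setting of the counting, and the split of reads between Ccl3 and Ccl4 is uncertain.

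RefSeq promoters (GRCm38.p6) matched 5 of the 10 genes: Ccl3, Ccl6, Ccl8, Ccl9 and Ccl12. The 250 bases before the start are shown for a pair of neighbours whose levels followed each other (Ccl9 and Ccl6) and for a pair whose levels did not (Ccl12 and Ccl8), each 5′ to 3′ on the gene's own strand. Ccl9 is chr11:83578637-83578886 (minus), Ccl6 chr11:83593088-83593337 (minus), Ccl12 chr11:82101595-82101844 (plus) and Ccl8 chr11:82114935-82115184 (plus). Capitals mark matches to the motifs listed after them.
Ccl9: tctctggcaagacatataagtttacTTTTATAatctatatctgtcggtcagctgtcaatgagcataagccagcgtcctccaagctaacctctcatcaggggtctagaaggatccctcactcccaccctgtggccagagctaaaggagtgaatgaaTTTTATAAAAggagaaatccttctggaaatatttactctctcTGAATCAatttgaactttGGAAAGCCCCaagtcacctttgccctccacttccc
Ccl6: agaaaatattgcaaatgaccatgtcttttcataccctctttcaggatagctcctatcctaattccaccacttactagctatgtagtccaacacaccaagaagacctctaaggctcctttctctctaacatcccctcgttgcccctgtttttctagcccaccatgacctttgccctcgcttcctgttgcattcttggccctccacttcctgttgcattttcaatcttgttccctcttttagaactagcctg
Ccl12: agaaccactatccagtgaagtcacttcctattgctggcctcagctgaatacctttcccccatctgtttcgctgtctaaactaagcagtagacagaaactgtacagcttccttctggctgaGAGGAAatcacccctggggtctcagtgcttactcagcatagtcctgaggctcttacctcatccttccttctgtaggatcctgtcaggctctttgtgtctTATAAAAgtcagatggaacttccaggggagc
Ccl8: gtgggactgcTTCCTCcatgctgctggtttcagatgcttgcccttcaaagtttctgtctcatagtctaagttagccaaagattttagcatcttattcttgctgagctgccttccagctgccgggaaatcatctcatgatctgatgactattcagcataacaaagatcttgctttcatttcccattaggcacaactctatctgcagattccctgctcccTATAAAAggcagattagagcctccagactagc

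Each motif was searched on both strands of the 250 bases in 32851 promoters. The TATA box (TATAAAA), which 4.98% of promoters held, was found in Ccl12 from 31 to 25 bases before the start, in Ccl8 from 32 to 26 bases before it, and in Ccl9 further upstream, where 2 of its 3 matches overlap. PU.1 (GAGGAA), bound by a factor of myeloid cells, was in Ccl12, Ccl8 and Ccl3 and in 23.3% of all promoters. Ccl9 held a kappaB motif (7.25% of promoters), 35 to 26 bases before the start, and an AP-1 motif (TGANTCA, 6.75%), 53 to 47 bases before it. None of the 5 held the STAT motif (TTCNNNGAA, 7.02%), the STAT6 motif (5.85%) or the C/EBP motif (TTGCNNAA, 9.56%), and Ccl6 held none of the 7. The best local alignment of the Ccl9 and Ccl6 promoters covers 17 bases, of which 16 are identical, at different distances from the start (18 to 2 bases before that of Ccl9, 59 to 43 bases before that of Ccl6). The best one of Ccl12 and Ccl8 is longer, with 41 of 58 aligned positions identical, and lies at nearly the same distance from both starts (147 to 91 bases before that of Ccl12, 147 to 93 before that of Ccl8). The stretch of Ccl9 and Ccl6 is shown with the differing base in capitals.
Ccl9: cttTgccctccacttcc
Ccl6: cttGgccctccacttcc

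The libraries held 21056850 to 31072491 counts, and 17790 to 18431 genes had at least 1 count in each. A gene with 0 counts could, by counting error alone, have up to 3, which is 0.0903 to 0.148 CPM (counts per 1e6 of the library total, scaled by TMM). Keratinocyte markers (Krt5, Krt14, Krt1, Krt10, Trp63) summed to between 13490 and 31790 CPM, with none at 0 in any library. Il6 went against the genotype label: it had 4 to 9 counts in uninvolved and 18 to 69 in lesional libraries labelled IL-17C+, but 55 and 71 in uninvolved and 300 and 315 in lesional libraries labelled IL-17C+KO. Counts of a whole gene do not show whether the transcript is intact. Directions between genotypes are therefore directions between labels. Il17c was present in all 10 libraries, at 534.6 to 15180 CPM, and counts per gene do not separate the transgene from the endogenous gene. The highest level was in uninvolved 2237, above the 10600 CPM of its lesion, and the lowest in uninvolved 2465. Lesional 2392 held 2347 CPM, and the other lesional libraries 10600 to 12470 CPM.

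By the group mean, Ccl8 was the most abundant of the chemokines per transcript length in every group, though Ccl6 lay above it in uninvolved 2392. On the scale of the deposited FPKM values (fragments scaled to transcript length and library size), uninvolved skin of the 3 IL-17C+ mice held 336 FPKM of Ccl8 on average (range 169.9 to 589), 74.3 of Ccl6 (61.9 to 82.9), 24.1 of Ccl9 (21.5 to 25.7) and 13.9 of Ccl11 (9.27 to 18.2). Ccl7 followed at 7.95 FPKM (7.42 to 8.66), Ccl2 at 5.99 (4.59 to 7.23), Ccl12 at 4.69 (3.88 to 5.73), Ccl24 at 2.99 (1.5 to 4.26), Ccl4 at 1.17 (0.812 to 1.73) and Ccl3 at 0.487 (0.0575 to 0.996). From Ccl8 down to Ccl2 the ranges of neighbours in this order did not overlap, whereas from Ccl2 down to Ccl3 each overlapped the next. In lesional skin labelled IL-17C+KO the order of means was different: Ccl7 (94.4 and 133 FPKM) and Ccl2 (78.8 and 114) followed directly on Ccl8 (189.9 and 676) and Ccl6 (52.9 and 584). Neither library had this order by itself. In 2465 Ccl7 and Ccl2 lay above Ccl6, and in 2392 Ccl9 (131.5 FPKM, against 21.8 in 2465) lay above Ccl2. Over the 10 libraries Ccl4 spanned a 461-fold range of CPM and Ccl3 a 402-fold range, Ccl2 23.1-fold and Ccl11 4.52-fold.

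**Figure D1:**
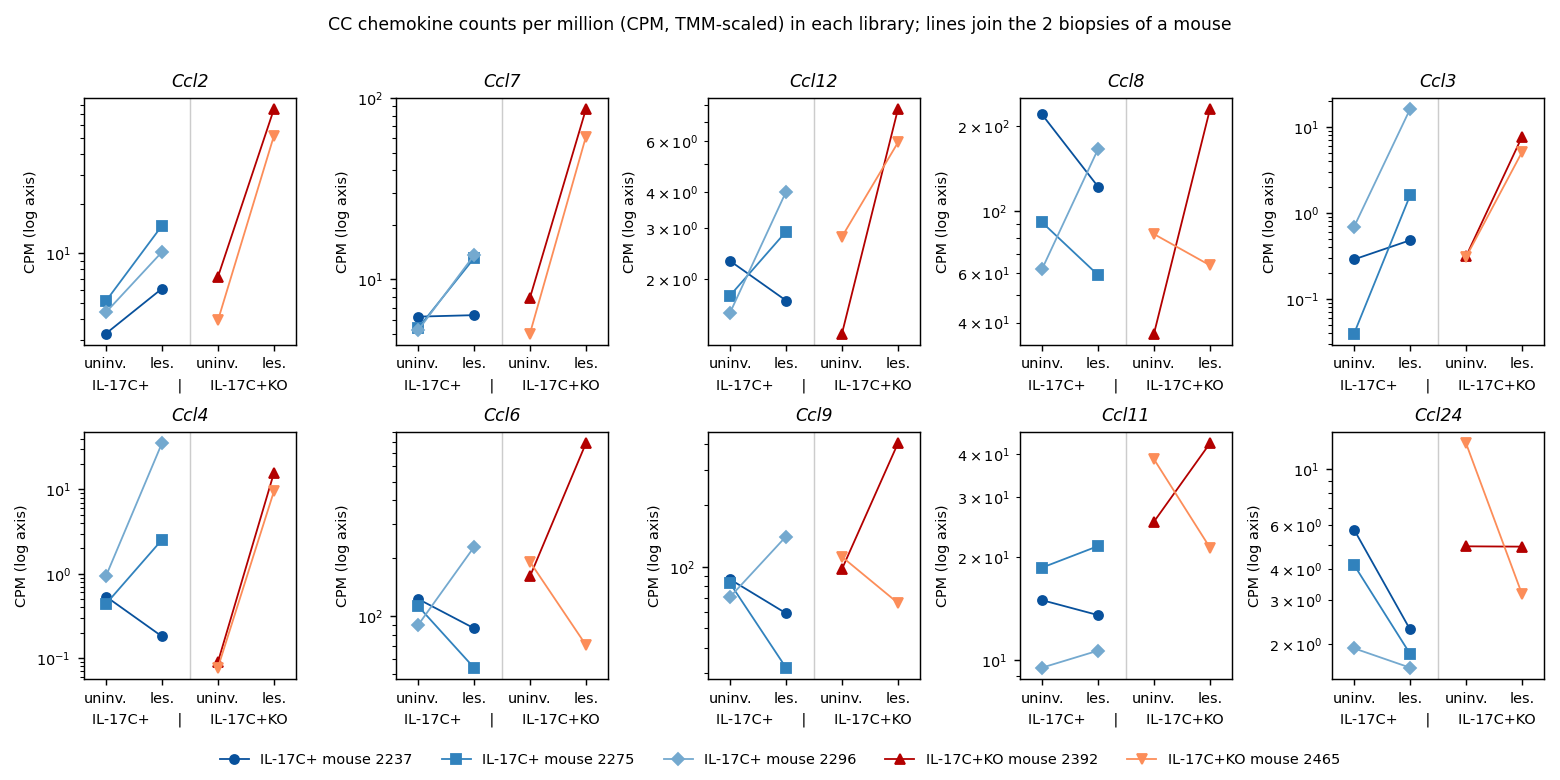
CPM (TMM-scaled, log axis) of each chemokine in the 10 libraries, with 1 panel per gene; lines join the uninvolved (uninv.) and lesional (les.) biopsy of a mouse, blue for the label IL-17C+ and red or orange for IL-17C+KO. Ccl2 and Ccl7 are highest in the 2 lesional libraries labelled IL-17C+KO, and Ccl6, Ccl8 and Ccl9 are higher in the lesion of mice 2296 and 2392 only.

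Lesional skin was first compared with uninvolved skin of the same mouse over all 5 mice, to ask what the lesions had in common. Monocyte attractants Ccl2 and Ccl7 and the leukocyte chemokines Ccl3 and Ccl4 were higher on average in lesional skin, and the eotaxin Ccl24 was lower, but none passed the threshold over all genes. edgeR's quasi-likelihood test with the mouse as a block gave 8 of 16083 genes an adjusted p under 0.05 (0.0435% higher, 0.00622% lower), and 0 of the 10 chemokines. At an unadjusted p under 0.05, 5 of the 10 were higher (10.1% of all genes) and 1 was lower (11.5%). The median log2 difference was 0.72 over the chemokines and -0.01 over all genes. Mouse 2237 weighed on these calls: without it 1249 genes passed and the adjusted p was 0.00965 for Ccl3 and 0.0303 for Ccl4, whereas without any of the other mice 0 genes passed. DESeq2 called 4 of the 10 higher (Ccl2, Ccl3, Ccl4 and Ccl7), against 6.25% of all genes, and 0 lower (6.41%).

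Ccl2 (monocyte chemoattractant protein 1) is the main ligand of Ccr2. Its uninvolved libraries held 3.26, 5.14 and 4.39 CPM in IL-17C+ mice 2237, 2275 and 2296, and 7.20 and 3.91 CPM in mice 2392 and 2465 labelled IL-17C+KO. Its lesional libraries held 6.11, 14.7 and 10.2 CPM, and 75.3 and 51.8 CPM. Every lesional biopsy was above the uninvolved biopsy of its mouse, by 1.87-, 2.87- and 2.33-fold in IL-17C+ mice and by 10.5- and 13.2-fold in the others. The lesional and uninvolved groups overlapped in the 5 mice together, because lesional 2237 lay below uninvolved 2392. The difference was 2.14 ± 0.49 log2 units (SE, 5 mice), with an unadjusted p = 0.00313 and an adjusted p = 0.0998 (edgeR).

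Ccl7 (monocyte chemoattractant protein 3), the neighbour of Ccl2 at 8.258 kb, binds Ccr2 and also other receptors. Its uninvolved levels were 6.23, 5.38 and 5.23 CPM in IL-17C+ mice 2237, 2275 and 2296 and 7.91 and 5.03 CPM in mice 2392 and 2465. Its lesional levels were 6.35, 13.1 and 13.6 CPM, and 87.0 and 61.3 CPM. Mouse 2237 showed almost no difference (1.02-fold), the other IL-17C+ mice 2.43- and 2.60-fold, and the mice labelled IL-17C+KO 11- and 12.2-fold. The difference over 5 mice was 1.95 ± 0.58 log2 units (SE, edgeR adjusted p = 0.134). The number of reads of Ccl7 per read of Ccl2 stayed between 0.887 and 1.91 in the 10 libraries.

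Ccl12 (monocyte chemoattractant protein 5), another Ccr2 ligand, was scarcer, with 29 to 205 counts per library. Uninvolved biopsies held 2.31, 1.75 and 1.53 CPM in IL-17C+ mice 2237, 2275 and 2296 and 1.30 and 2.80 CPM in mice 2392 and 2465, and lesional biopsies 1.69, 2.92 and 4 CPM, and 7.73 and 5.93 CPM. It was higher in lesional skin of 4 mice and lower in mouse 2237 (0.729-fold), and the difference was 1.06 ± 0.43 log2 units (SE, 5 mice, edgeR adjusted p = 0.215). Ccl8 (monocyte chemoattractant protein 2), which in the mouse also acts through Ccr8, split the mice in another way. Its uninvolved levels were 219.9, 90.9 and 62.0 CPM and 36.6 and 82.6 CPM, and its lesional levels 122, 59.1 and 165.5 CPM and 229.7 and 63.9 CPM, in the same order of mice. It was higher in lesional skin of 2296 and 2392 only, and the difference was 0.39 ± 0.56 log2 units (edgeR adjusted p = 0.728).

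Ccl3 and Ccl4 (macrophage inflammatory proteins 1 alpha and 1 beta) attract monocytes and lymphocytes, and were near the limit of detection in uninvolved skin. Ccl3 had 7, 1 and 14 counts in uninvolved biopsies of IL-17C+ mice 2237, 2275 and 2296 and 7 and 8 in those of mice 2392 and 2465, against 16, 41 and 408 and 203 and 114 in the lesional ones. All 5 lesional libraries exceeded all 5 uninvolved libraries in counts, though lesional 2237 (0.482 CPM) lay below uninvolved 2296 (0.690 CPM). Pooled over the mice of a label, the lesional to uninvolved ratio of CPM was 17.4 (95% exact counting interval 11.4 to 28.1) for IL-17C+ and 20.9 (12.5 to 37.8) for IL-17C+KO. These intervals leave out the spread between mice. Mouse 2296 held 408 of the 465 lesional IL-17C+ counts, and without it the ratio was 5.96 (2.83 to 14.5), against 26.5 without 2237 and 15.3 without 2275, a comparison chosen after seeing the data. The fitted difference was 3.84 ± 0.64 log2 units (SE, 5 mice), with an unadjusted p = 0.000458 that ranked 107 of 16083 genes and an edgeR adjusted p = 0.066.

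Ccl4 had 13, 11 and 19 counts in uninvolved biopsies of the IL-17C+ mice and 2 in each of those labelled IL-17C+KO. Its lesional counts were 6 in 2237, 65 in 2275 and 902 in 2296, and 416 in 2392 and 213 in 2465. Mouse 2237 was again the exception, with fewer counts in the lesion, and mouse 2296 held most of the IL-17C+ signal (35.4 CPM against 0.181 and 2.53). The pooled ratio was 18.7 (95% exact counting interval 13.7 to 26.0) for IL-17C+ and 156 (60.5 to 573) for IL-17C+KO, where the denominator is 4 counts. Without mouse 2296 the IL-17C+ ratio was 2.48 (1.54 to 4.11), and without 2237 it was 28.6 (19.9 to 42.6). The fitted difference was 4.21 ± 1.31 log2 units (SE, 5 mice, edgeR adjusted p = 0.143), and its size depends on the prior count.

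Ccl6 and Ccl9, rodent chemokines made by macrophages and other myeloid cells, followed each other and went in no common direction. Ccl6 held 123, 113 and 89.9 CPM in uninvolved biopsies of the IL-17C+ mice 2237, 2275 and 2296 and 161.0 and 191.9 CPM in those of 2392 and 2465, and 86.8, 54.2 and 228.6 CPM and 789.9 and 71.0 CPM in the lesional ones. Both genes were higher in lesional skin of 2296 (2.54-fold for Ccl6, 1.98-fold for Ccl9) and 2392 (4.91- and 4.15-fold), and lower in that of 2237, 2275 and 2465 (0.370- to 0.704-fold for Ccl6, 0.385- to 0.681-fold for Ccl9). The edgeR differences over 5 mice were 0.08 ± 0.60 and 0.04 ± 0.52 log2 units (adjusted p = 0.952 and 0.975). Reads of Ccl6 per read of Ccl9 stayed between 1.07 and 1.95, both extremes being lesional libraries labelled IL-17C+KO.

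Ccl11 (eotaxin 1) attracts eosinophils through Ccr3 and is made mainly by fibroblasts. Its CPM was 15.0, 18.6 and 9.52 in uninvolved and 13.5, 21.5 and 10.7 in lesional skin of IL-17C+ mice 2237, 2275 and 2296. In mice 2392 and 2465 it was 25.4 and 38.6 in uninvolved and 43.0 and 21.3 in lesional skin. Lesional levels were 0.552- to 1.69-fold those of the uninvolved partner, with 3 mice higher and 2 lower, and the difference over 5 mice was 0.03 ± 0.24 log2 units (SE, edgeR adjusted p = 0.958).

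Ccl24 (eotaxin 2), also a Ccr3 ligand, was the only one of the 10 that was lower in lesional skin at an unadjusted p under 0.05. Uninvolved biopsies held 5.74, 4.14 and 1.92 CPM in the IL-17C+ mice 2237, 2275 and 2296 and 4.92 and 12.7 CPM in 2392 and 2465, and lesional biopsies 2.29, 1.83 and 1.61 CPM and 4.90 and 3.17 CPM. It was lower in 5 of 5 mice, a pattern shared by 9.73% of all genes, but by almost nothing in mouse 2392 (0.997-fold). The difference was -0.96 ± 0.34 log2 units (SE, 5 mice, unadjusted p = 0.0256, edgeR adjusted p = 0.172). Higher in all 5 mice were Ccl2, Ccl3 and, by only 1.02-fold in mouse 2237, Ccl7, which makes 3 of the 10 chemokines against 9.13% of all genes.

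**Figure D2:**
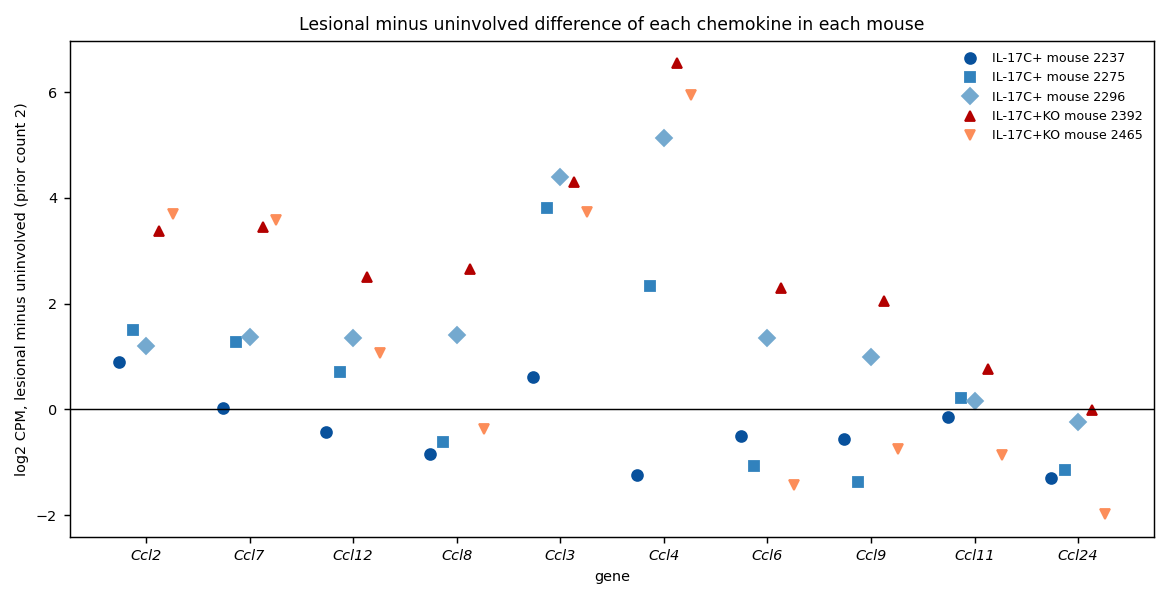
Lesional minus uninvolved difference of log2 CPM (prior count 2) for each chemokine and mouse, 1 point per mouse. Both IL-17C+KO points lie above all IL-17C+ points for Ccl2, Ccl7 and Ccl4, while mice 2296 and 2392 lie apart from the other mice for Ccl8, Ccl6 and Ccl9.

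Within the 3 IL-17C+ mice, lesional skin held more Ccl2 by 1.22 ± 0.26 log2 units (SE, unadjusted p = 0.0024, edgeR adjusted p = 0.62), Ccl3 3.42 ± 0.89 (unadjusted p = 0.00705, adjusted p = 0.62) and Ccl7 0.90 ± 0.33 (unadjusted p = 0.0326, adjusted p = 0.752). These were the 3 of 10 chemokines that were higher at an unadjusted p under 0.05 in edgeR, against 3.54% of all genes. The threshold over all genes was passed by 0 of 16083 genes, 1031 had an unadjusted p under 0.05, and the smallest adjusted p was 0.12. limma-voom also called 0 genes. DESeq2 called 247 genes, among them Ccl2 and Ccl3, that is 2 of the 10 against 0.964% of all genes higher. The median was 0.32 log2 units over the chemokines and -0.02 over all genes.

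Within the 2 mice labelled IL-17C+KO, the differences were larger for Ccl2 (3.55 ± 0.34 log2 units, SE) and Ccl7 (3.53 ± 0.43), which ranked 4 and 10 of 16083 genes by p. Neither passed the threshold (edgeR adjusted p = 0.0886 and 0.165), which 2 genes did (0.00622% in each direction). Without mouse 2237, which enters through the shared estimate of the spread, both had an adjusted p = 0.0499. Ccl4 was 7.13 ± 1.67, Ccl3 4.31 ± 0.99 and Ccl12 1.81 ± 0.63 log2 units higher (adjusted p = 0.224, 0.222 and 0.299). In all, 5 of the 10 were higher at an unadjusted p under 0.05, against 6.16% of all genes, and 0 were lower (7.31%). The median was 1.48 log2 units over the chemokines and 0.00 over all genes. DESeq2 called 4 of the 10 higher (Ccl2, Ccl3, Ccl4 and Ccl7), against 3.33% of all genes.

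The difference between the labels in the lesional change was then tested in the same fit. By p, Ccl2 ranked 1 and Ccl7 ranked 4 of 16083 genes. The change was larger under the label IL-17C+KO by 2.34 ± 0.40 log2 units for Ccl2 (SE, 2 against 3 mice, unadjusted p = 0.000803) and by 2.63 ± 0.52 for Ccl7 (unadjusted p = 0.00183). The edgeR adjusted p was 1 for both, and 0 genes passed. Those were the 2 of 10 chemokines with an unadjusted p under 0.05 in this direction, against 0.572% of all genes. Ccl4 came next (4.69 ± 2.04, unadjusted p = 0.0579), followed by Ccl12 (1.26 ± 0.80, unadjusted p = 0.162). The change of both mice labelled IL-17C+KO exceeded that of all 3 IL-17C+ mice for Ccl2, Ccl7 and Ccl4, 3 of the 10 against 5.45% of all genes. DESeq2 called 6 genes in all, among them Ccl2 (adjusted p = 0.00599) and Ccl7 (adjusted p = 0.0322), 2 of the 10 against 0.0249% of all genes higher (0.0124% lower). With single mice left out, the edgeR difference stayed between 2.17 and 2.5 log2 units for Ccl2 and between 2.2 and 2.86 for Ccl7.

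Lesional libraries were also compared directly between the labels, with 1 library per mouse. These comparisons share their lesional libraries with the ones above and are not separate evidence. Ccl2 averaged 63.5 ± 16.6 CPM (SD, n = 2) under the label IL-17C+KO and 10.3 ± 4.32 CPM (SD, n = 3) under IL-17C+, and Ccl7 averaged 74.2 ± 18.2 CPM and 11 ± 4.03 CPM. These differences were 2.64 ± 0.40 and 2.78 ± 0.38 log2 units (SE), with ranks of 24 and 13 of 15691 genes and edgeR adjusted p = 0.5 and 0.459. Ccl12 averaged 6.83 ± 1.27 against 2.87 ± 1.16 CPM (1.28 ± 0.42 log2 units, adjusted p = 0.592), Ccl24 4.03 ± 1.23 against 1.91 ± 0.347 CPM (1.10 ± 0.34, adjusted p = 0.585) and Ccl11 32.1 ± 15.3 against 15.2 ± 5.63 CPM (1.10 ± 0.42, adjusted p = 0.67).

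Those 5 of the 10 chemokines had an unadjusted p under 0.05 and were higher under IL-17C+KO, against 4.77% of all genes, and both IL-17C+KO libraries lay above all 3 IL-17C+ libraries for Ccl2, Ccl7, Ccl12 and Ccl24 (4 of the 10, against 11.8% of all genes). All 10 differences were positive, where 50.7% of all genes were. For Ccl6 (1.83 ± 1.04), Ccl9 (1.64 ± 0.89) and Ccl8 (0.38 ± 0.64) that direction rested on mouse 2392, without which they were -0.76, -0.18 and -0.82 log2 units. Ccl3 (0.12 ± 1.34) and Ccl4 (0.02 ± 1.69) had standard errors far above their differences, and both were below 0 without mouse 2237, 2275 or 2392. Their size depended on the tool, with 1.56 ± 1.28 and 2.44 ± 1.75 in limma-voom and 0.11 ± 1.18 and 0.01 ± 1.95 in DESeq2. DESeq2 called Ccl2 and Ccl7, 2 of the 10 against 1.04% of all genes higher, while edgeR and limma-voom called 0 genes.

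**Figure D3:**
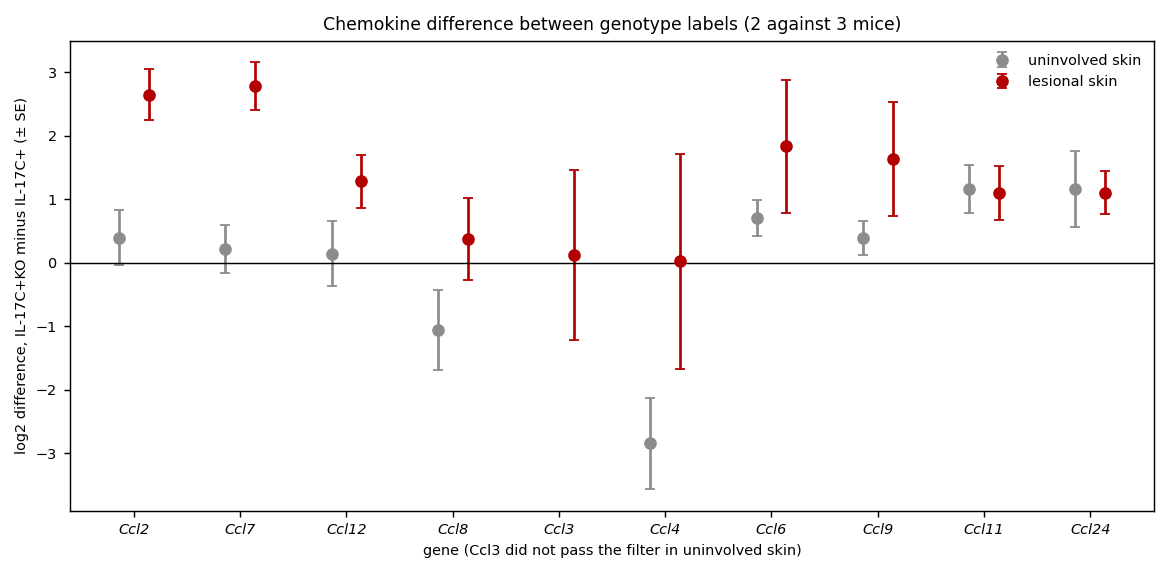
Difference between the labels (IL-17C+KO minus IL-17C+, log2 units, bars ± SE) of each chemokine in uninvolved (grey) and lesional (red) skin, from 2 against 3 mice. Ccl2 and Ccl7 differ by over 2.6 units in lesional skin and lie within 0.40 of 0 in uninvolved skin, while Ccl11 and Ccl24 have about the same difference in both.

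In uninvolved skin Ccl2 and Ccl7 differed little between the labels (0.40 ± 0.44 and 0.21 ± 0.38 log2 units, SE, 2 against 3 mice). Ccl11 was 32.0 ± 9.34 CPM (SD, n = 2) under IL-17C+KO and 14.4 ± 4.59 CPM (SD, n = 3) under IL-17C+ (1.16 ± 0.38 log2 units, unadjusted p = 0.0191), and Ccl6 was 176 ± 21.9 against 108.8 ± 17.1 CPM (0.70 ± 0.29, unadjusted p = 0.0462). Ccl4 was lower, with 2 counts in each of the 2 IL-17C+KO libraries against 11 to 19 counts (-2.85 ± 0.72, unadjusted p = 0.00586, rank 23 of 15568). The edgeR adjusted p was 0.849 for these 3, and 0 of 15568 genes passed, with 581 at an unadjusted p under 0.05. At that unadjusted level 2 of the 9 chemokines tested were higher (1.91% of all genes) and 1 was lower (1.82%). The groups did not overlap for Ccl6, Ccl9 and Ccl11 (3 of 9 higher, 10.5% of all genes) and Ccl4 (1 of 9 lower, 10.6%), and Ccl3 did not pass the filter on low counts. DESeq2 called 0 of the 9, against 0.0385% of all genes higher and 0.0321% lower. Ccl24 was 8.81 ± 5.50 against 3.93 ± 1.91 CPM (1.16 ± 0.60, unadjusted p = 0.0942), a difference that was 0.33 without mouse 2465.

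Levels of the chemokines fell into sets that followed each other over the 10 libraries. As a description over 10 libraries from 5 mice, which share mice and depth, Pearson's r of log2 CPM was 0.98 for Ccl2 with Ccl7, 0.98 for Ccl6 with Ccl9, 0.92 for Ccl3 with Ccl4 and 0.89 for Ccl7 with Ccl12. Ccl8 and Ccl12, neighbours 11.784 kb apart, had 0.46, Ccl11 and Ccl7, 10.297 kb apart, 0.42, and the lowest value was -0.49 for Ccl4 with Ccl24. Among 13444 genes, the pattern of Ccl2 was most like those of Ccl7, Tnfaip6 (0.95) and Cyp1b1 (0.95), and that of Ccl7 most like those of Ccl2, Tnfaip6 (0.97) and Il1r1 (0.96). For Ccl8 these were Rnf141 (0.90), Rpusd3 (0.89) and Akr1c13 (0.88). For Ccl11 they were Pld4, Ebf1 and Epb4.1l2 (0.945 to 0.948), and for Ccl24 Orc3, Armc8 and Mum1 (0.90 to 0.925).

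Chemokine receptors were measured as well. Of 7 receptor genes, 6 were tested over all 5 mice. At an unadjusted p under 0.05, 3 were higher in lesional skin (10.1% of all genes) and 1 was lower (11.5%), and 0 passed over all genes. Ccr1, the receptor of Ccl3, Ccl6 and Ccl9, was 2.51 ± 0.47 log2 units higher (SE, 5 mice, edgeR adjusted p = 0.0752), with differences of 0.42, 2.40 and 3.62 in mice 2237, 2275 and 2296 and 3.12 and 2.63 in 2392 and 2465. Ccr2 was 1.02 ± 0.31 and Cx3cr1, the fractalkine receptor, 0.72 ± 0.30 log2 units higher (adjusted p = 0.141 and 0.217), and the scavenging receptor Ackr2, which takes up inflammatory CC chemokines, was -0.66 ± 0.23 (adjusted p = 0.166). Over the 6 receptors the median was 0.46, and the summed level of all 7 was 34.0 to 43.5 CPM in uninvolved and 45.6 to 85.8 CPM in lesional IL-17C+ libraries, and 52.9 and 61.6 against 168.8 and 89.0 CPM in those of 2392 and 2465. Between the labels in lesional skin, 4 of the 6 were higher under IL-17C+KO at an unadjusted p under 0.05 (4.77% of all genes), and 0 passed over all genes. There 6 of 6 had a positive difference, with a median of 1.06. In uninvolved skin 6 of 6 were positive as well, with a median of 0.54 and 0 at that p. For the difference in change between the labels 0 of 6 reached that p.

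Ccr3, the receptor of Ccl11 and Ccl24, had 0 to 8 counts per library and was not tested. Of 9 eosinophil markers, Epx, which encodes eosinophil peroxidase, had 0 counts in all 10 libraries, and Prg3 had 1 count in 1 library and 0 in the rest. Prg2, the major basic protein gene, had 0 to 5 counts and Siglecf 0 to 30. Between 1 and 4 of the 9 were at 0 in a library, and their sum was 9.24 to 22.5 CPM in uninvolved and 24.1 to 40.9 CPM in lesional IL-17C+ skin, and 7.60 and 14.0 against 19.8 and 23.7 CPM under IL-17C+KO. Most of this sum came from Ear1, Ear2 and Ear6 (14 to 668 counts per library), ribonuclease genes of a family of near-identical copies that macrophages can also express, so their counts are uncertain. In the lesion of all 5 mice Ear1 and Ear6 were higher (0.57 to 2.12 and 0.57 to 2.86 log2 units) and Ear2 was lower (-1.41 to -0.62). Il5ra, another of the 9, had 4 to 18 counts per library. Ccl11 was at 9.52 to 43.0 CPM in these libraries, and whether eosinophils were present was not tested.

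Macrophage markers went with Ccl6, Ccl8 and Ccl9. Over 12 monocyte and macrophage genes the median lesional difference was 0.50 log2 units in mouse 2237, -0.30 in 2275, 0.91 in 2296, 1.18 in 2392 and -0.38 in 2465. The 6 genes of alternatively activated macrophages gave 0.33, -0.60 and 0.68, and 1.98 and -1.05. Both lists, like these chemokines, were higher in the lesions of 2296 and 2392 and lower in those of 2275 and 2465, and mouse 2237 parts them. Summed levels of the macrophage genes were 698.9 to 970.8 CPM in uninvolved and 772.7 to 1635 CPM in lesional IL-17C+ skin, and 886.4 to 1379 against 1237 to 2197 CPM under IL-17C+KO, with none at 0. Their part in the chemokine values was not tested. Of the 6, the chitinase-like gene Chil3 was 2.69 ± 0.61 and Arg1 1.94 ± 0.55 log2 units higher over all 5 mice, Retnla was -2.04 ± 0.77 and Mrc1 0.44 ± 0.39 (SE, edgeR adjusted p = 0.0978, 0.127, 0.187 and 0.549), so that at an unadjusted p under 0.05 2 were higher and 1 lower.

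The fibroblast and neutrophil marker medians, like Ccl2, Ccl7, Ccl3 and Ccl4, had their smallest lesional difference in mouse 2237. Over 6 fibroblast genes the median lesional difference was 0.41 in mouse 2237, 1.5 in 2275, 1 in 2296, 1.36 in 2392 and 2.29 in 2465 (log2 units), and over 6 neutrophil genes 0.60, 3.06 and 2.91 and 2.86 and 5.26. Mouse 2237, where Ccl7 was 1.02-fold and Ccl4 0.337-fold of its uninvolved level, was the lowest for both lists. The eosinophil median (3 genes, Ear1, Ear2 and Ear6) was also lowest there, at 0.57. Neither the fibroblast nor the neutrophil median followed the split between labels of Ccl2, Ccl7 and Ccl4. Within the fibroblast list Pdgfra did, and the other genes did not. Pdgfra differed by 0.79, 0.74 and 0.81 log2 units in 2237, 2275 and 2296, and by 1.46 and 1.405 in 2392 and 2465. For both lists the median of mouse 2392 (1.36 and 2.86) lay below that of the IL-17C+ mouse 2275 (1.5 and 3.06). Their sums in CPM, lowest to highest library, were 2073 to 2719 in uninvolved and 3588 to 7716 in lesional IL-17C+ skin for fibroblasts (2245 to 3486 and 4598 to 17660 under IL-17C+KO), and 73.6 to 2432 and 2201 to 12600 for neutrophils (61.6 to 759 and 4479 to 6130), with none at 0. The 5 skeletal muscle genes went the other way, with medians of -0.34, -3.06, -1.86, -2.48 and -5.99 and sums of 4500 to 30770 CPM in uninvolved and 416 to 4472 CPM in lesional skin. The part of these cell types in the chemokine differences was not tested.

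**Figure D4:**
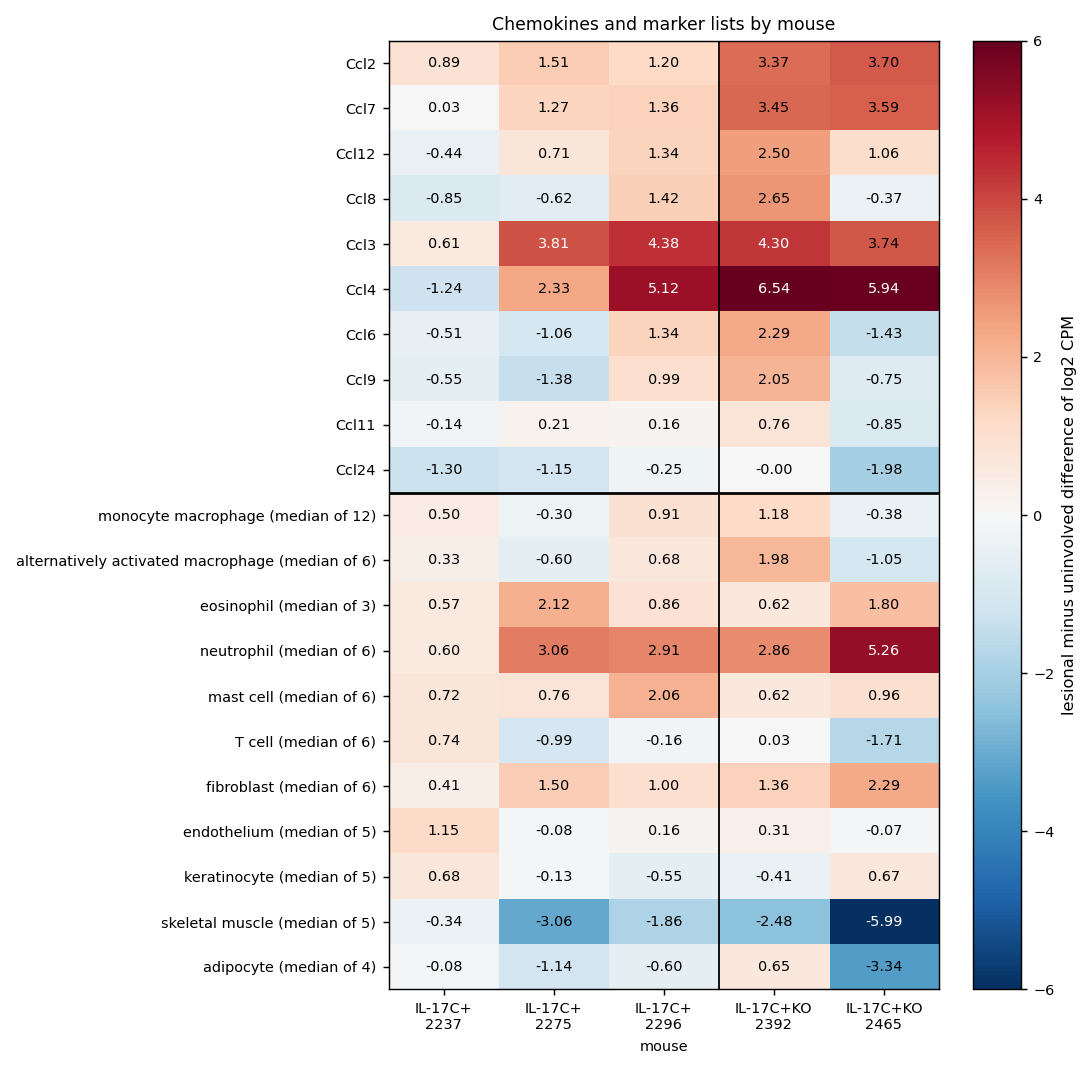
Lesional minus uninvolved difference of log2 CPM in each mouse (columns) for the 10 chemokines and, below the line, for the median of marker lists (in parentheses, the number of genes above a minimum mean CPM), coloured from -6 (blue) to 6 (red), a limit that Ccl4 in mouse 2392 exceeds. Ccl6, Ccl8 and Ccl9 share their positive mice, 2296 and 2392. The eosinophil, neutrophil, mast cell and fibroblast medians are positive in all 5 mice and the skeletal muscle median is negative in all 5. The eosinophil median is that of Ear1, Ear2 and Ear6 only, whose counts are uncertain, and Ear2 is lower in the lesion of all 5 mice.

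Cytokines that induce these chemokines were examined by a list of 12 genes, of which 8 were tested. Over all 5 mice, 6 were higher and 1 lower at an unadjusted p under 0.05 (10.1% and 11.5% of all genes), and 1 passed over all genes. Oncostatin M (Osm), an IL-6 family cytokine that acts on fibroblasts, rose by 4.66 ± 0.36 log2 units (SE, edgeR adjusted p = 0.026), from 2 to 17 counts in uninvolved to 33 to 444 counts in lesional libraries. Il33, an alarmin, was 1.54 ± 0.22 and Il6 2.19 ± 0.35 log2 units higher, and Tslp, an epithelial cytokine of type 2 responses, was -1.46 ± 0.23 (adjusted p = 0.066 for each). The eosinophil growth factor Il5 had 0 to 3 counts per library. None of the 8 differed in its change between the labels at an unadjusted p under 0.05, and Osm differed by 0.31 ± 0.85 log2 units there.

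Other lists were counted in the same way. Of 9 CC chemokines tested from a list of 10 outside this set, 0 were higher and 1 was lower at an unadjusted p under 0.05: Ccl27a, made by keratinocytes, stood at -1.44 ± 0.38 log2 units (SE, 5 mice, edgeR adjusted p = 0.116). Ccl1 (-0.81 ± 0.40), Ccl19 (0.79 ± 0.45) and Ccl28 (0.66 ± 0.38) followed by p. Their median was 0.11, below the 0.72 of the 10 chemokines described here, and this gap was not tested. Of 6 feedback genes of the NF-kB pathway, Birc3 alone had an unadjusted p under 0.05 (0.47 ± 0.17, adjusted p = 0.175). In lesional skin 5 of these 6 were higher under the label IL-17C+KO at that level, with Tnfaip3 at 2.84 ± 0.65 log2 units (adjusted p = 0.565), against 4.77% of all genes. The median label difference was 1.14 there and 0.51 in uninvolved skin, where 5 of the 6 were positive and 0 reached that level. Of 6 genes for myeloid growth factors and their receptors, Csf2rb (1.01 ± 0.25) and Csf2ra (0.68 ± 0.20) were higher in lesional skin over all 5 mice (adjusted p = 0.108 and 0.137), and 0 of the 6 passed over all genes. Between the labels in lesional skin 5 of the 6 had higher values under IL-17C+KO at an unadjusted p under 0.05, against the same 4.77% of all genes, and 0 passed, with Csf2rb at 1.63 ± 0.21 (rank 8 of 15691, adjusted p = 0.459). The median label difference was 1.15 there. In uninvolved skin it was 0.83, with 5 of 5 tested genes positive and 1 higher at that level (1.91% of all genes).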

How the data were processed

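RNA of 10 skin biopsies from 5 mice was sequenced on an Illumina Genome Analyzer IIx, per the labels' protocols. The submitters' processing notes name Cufflinks 2.2.1, HTSeq without a version, TopHat2 2.0.12, cutadapt 1.6 and the mm10 genome, in no order. The sources used here do not state the annotation, strand setting or treatment of multiply mapped reads. Per the file headers, the deposited tables hold a count and an FPKM value per gene symbol. The deposited counts are whole numbers with a different total in each library and were used for every test. The deposited FPKM values, scaled by the authors to transcript length and library size, were used to compare levels between genes.

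Counts were tested in R 4.3.3 with edgeR 4.0.16 (filterByExpr with the groups, TMM, robust quasi-likelihood fits), with p-values adjusted by Benjamini-Hochberg over all genes tested and a threshold of 0.05. Lesional effects came from a single model over the 10 libraries, blocked by mouse, and labels were compared separately in each skin type, with 1 library per mouse. Standard errors derive from the log2 change and its F statistic. For each mouse, log2 CPM (prior count 2) was subtracted between biopsies. With 2 and 3 mice per label, p-values rest on the spread between these mice. In the blocked model this is the spread of their lesional differences, and in the label comparisons that of their levels. DESeq2 1.42.0, limma-voom (limma 3.58.1), other scaling and filters, the fit without the block and leaving out each mouse were tried. The code was checked on simulated counts with known changes. No library was left out, and the files held 0 columns of other series.

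Pairing comes from the labels, which tie both biopsies to a mouse. After group means were subtracted, the lesional and uninvolved library of a mouse correlated at -0.122 (2237), 0.034 (2275), -0.07 (2296), -0.072 (2392) and -0.072 (2465). The values of 2392 and 2465 are equal by construction, because subtracting the mean of a pair leaves mirror images. Correlations this near 0 do not themselves show the pairing, which rests on the labels.

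All 10 chemokines are named, and from each of 6 pathway lists up to 4 genes with the smallest p over all 5 mice. Genes named beyond this, chosen after their values were seen, are those singled out for a count or a label difference. There were 12 cell type marker lists. A gene of the receptor list is not reported here, and the counts of that list leave it out. The chemokines, lists and tests were chosen with earlier results of these data known. Promoters are from RefSeq and were aligned with Biopython 1.88.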

Additional observations from a re-analysis of the deposited data

How the results depend on the processing

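With no replicate block, the number of genes past the threshold was 769 for all 5 mice and 0 for the mice labelled IL-17C+KO, against 8 and 2 with it. Under that setting the adjusted p over all 5 mice was 0.0288 for Ccl2 and Ccl7, 0.0429 for Ccl4 and 0.0483 for Ccl3. DESeq2 called 247 genes in IL-17C+ mice, 1157 in IL-17C+KO mice, 2036 over all 5, 6 for the difference in change, 213 between labels in lesional and 11 in uninvolved skin. With no filter on low counts there were 5 genes in IL-17C+KO mice (Ccl2 among them, adjusted p = 0.0434), 15 over all 5 and 1 between labels in lesional skin. limma-voom called 4 over all 5 mice, and a fit of the IL-17C+KO libraries alone called 0. Leaving out each mouse gave 0 to 11 genes in IL-17C+KO mice (11 without 2237), 0 to 1249 over all 5 (1249 without 2237) and 0 to 241 between labels in uninvolved skin (241 without 2275). The cause of these shifts was not tested.

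Of 610 fitted values of single chemokines under an alternative, 547 kept direction and stayed short of the threshold, 23 passed it and 40 changed sign. No chemokine had passed in the main fits, so none could lose a call. With no replicate block Ccl6 in IL-17C+ mice was 0.18 and Ccl11 in IL-17C+KO mice 0.007 log2 units, and with all 10 libraries in 1 fit Ccl4 between labels in lesional skin was -0.01. The other sign changes came from leaving out a mouse, and the ranges were as follows. In IL-17C+ mice they were -0.77 to 0.42 for Ccl6, -0.72 to 0.40 for Ccl8 and -0.95 to 0.22 for Ccl9. In IL-17C+KO mice they were -1.44 to 2.29 for Ccl6, -0.38 to 2.65 for Ccl8, -0.76 to 2.06 for Ccl9 and -0.86 to 0.76 for Ccl11. Over all 5 mice they were -0.46 to 0.51 for Ccl6, -0.14 to 0.74 for Ccl8, -0.45 to 0.41 for Ccl9 and -0.16 to 0.25 for Ccl11. For the difference in change they were -0.39 to 1.78 for Ccl3, -1.34 to 2.39 for Ccl6, -0.33 to 2.70 for Ccl8, -0.43 to 2.38 for Ccl9, -0.94 to 0.68 for Ccl11 and -1.07 to 0.93 for Ccl24. Between labels in lesional skin they were -0.43 to 2.62 for Ccl3, -0.56 to 3.23 for Ccl4, -0.76 to 2.69 for Ccl6, -0.82 to 0.997 for Ccl8 and -0.18 to 2.39 for Ccl9. In uninvolved skin they were -0.12 to 0.77 for Ccl2, -0.16 to 0.51 for Ccl7 and -0.51 to 0.58 for Ccl12. Depth limits Ccl3, Ccl4 and the eosinophil markers, which had few counts in uninvolved skin.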

Other observations

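Markers of other cell types were counted over all 5 mice at an unadjusted p under 0.05 in edgeR, where 10.1% of all genes were higher in lesional skin and 11.5% lower. All 6 mast cell genes were higher (median 0.99 log2 units), as were 5 of 6 neutrophil genes (3.33) and 4 of 6 fibroblast genes (1.38). Of 12 monocyte and macrophage genes 4 were higher and 0 lower (0.37), of 5 tested eosinophil genes 2 were higher and 1 lower (0.51), and of 5 endothelial genes 1 was higher (0.30). T cell genes (6, median -0.46) and Langerhans and dendritic cell genes (6, median -0.08) moved both ways, with 1 higher and 1 lower and with 2 higher and 1 lower. Keratinocyte genes had a median of 0.07 (1 of 5 higher), skeletal muscle genes -2.70 (4 of 5 lower), adipocyte genes -0.88 (0 of 4) and hair follicle genes 1.42 (0 of 5). The hair follicle value stands for no single mouse: its median was 8.59 in 2275 and 6.18 in 2465, but -0.71, -0.80 and -1.02 in 2237, 2296 and 2392. None of these markers passed the threshold over all genes.

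Hair follicle genes varied widely among the uninvolved IL-17C+ libraries, with sums of 8162, 13.7 and 1504 CPM in 2237, 2275 and 2296 against 25.2 and 20.9 CPM in 2392 and 2465. All 5 were lower under IL-17C+KO at an unadjusted p under 0.05 (1.82% of all genes; median -6.97 log2 units), but mouse 2275 lay below both of those mice and the labels overlap. Of 5 endothelial genes, 5 had higher values under IL-17C+KO at that level in lesional skin (4.77% of all genes), with a median of 0.89 and sums of 345.0 and 311.6 CPM against 133 to 209 CPM. In uninvolved skin 2 of 5 did (1.91% of all genes), with a median of 1.04 and sums of 277.5 and 337.4 CPM against 65.2 to 217.9 CPM, and 0 passed over all genes in either skin. Both stand beside the label differences of Ccl11 and Ccl24, and their part in them was not tested.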
